A study of Saccharomyces cerevisiae with 6 samples.

Results

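Messenger RNA decay in the budding yeast Saccharomyces cerevisiae begins at the poly(A) tail. The Pan2-Pan3 complex and then the Ccr4-Not complex shorten the tail. The decapping enzyme, made of Dcp2 and its partner Dcp1, next removes the cap from the other end, helped by activators such as Pat1, Edc1 and Edc2, and the uncapped RNA is degraded. These steps set how long an mRNA lasts and therefore how fast its level can follow a stress such as heat. The results below describe the heat response of 9 genes of these steps (DCP1, DCP2, PAT1, EDC1, EDC2, CCR4, POP2, PAN2 and PAN3). The genes were chosen by name, with earlier results of these data known. All 9 were measured, among 4073 genes in all, each with 7 spots on every array, and no filter on low values was applied.

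The data were 6 arrays of 2 channels, 3 of the rpd3 deletion (rpd3Δ) and 3 of wild type (BY4741). The mutant carries a deletion of RPD3, which encodes a histone deacetylase, in the same BY4741 background, and the labels name no other alleles. Each array compared cells after 20 minutes at 39 °C with cells of that strain kept at 25 °C. Both came from mid-log cultures in YPD rich medium, and the labels call the arrays of a strain biological replicates from 3 independent cultures. On every array the heated cells were labelled with Cy3 and the control cells with Cy5, so dye and heat cannot be told apart within a strain. A dye bias shared by all 6 arrays drops out of the comparison of strains. In RNA of whole cultures, fewer cells that express a gene and less RNA per cell cannot be told apart.

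Every value is a log2 ratio on this scale, called the heat ratio here: the mean over the spots of a gene, likely of heated over control cells. The sources used here do not state the log base or the sign. Base 2 was read from the range of the values. The sign follows from the design text and from the heat shock genes HSP12, HSP104 and SSA4, which were positive on all 6 arrays (means of 4.81 to 6.99 in the mutant and 4.04 to 6.39 in wild type). "Rose" and "fell" mean that a heat ratio differed from 0 at an adjusted p under 0.05 in limma, adjusted over all 4073 genes. The strain difference is the heat ratio of the mutant minus that of wild type. A ratio does not show whether the strains differed in their control cells, in their heated cells or in both. RPD3, which is absent from both channels of a mutant array, had a mean ratio of -0.07 in the mutant and 0.22 in wild type. It rose in wild type (adjusted p = 0.021) and was not called in the mutant. Its strain difference of -0.29 was called (adjusted p = 0.038), though the mutant has no RPD3 transcript. Arrays of a strain correlated across genes with r of 0.851 to 0.956 in the mutant and 0.952 to 0.980 in wild type. Between strains r was 0.504 to 0.853. Mutant array 2 correlated with wild-type array 3 (0.853) about as closely as with mutant array 3 (0.851).

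More of the 9 genes fell than rose after heat in the mutant, where 6 fell, 2 rose and 1 was not called. In wild type 2 fell, 2 rose and 5 were not called. The median heat ratio of the 9 genes was -0.60 in the mutant and 0.08 in wild type, beside 0.0026 and -0.05 for all genes. Of all genes, 65.6% were called in the mutant (31.9% fell and 33.7% rose) and 66% in wild type (36.3% fell and 29.7% rose). The strain difference was called for 6 of the 9 genes, 5 lower in the mutant and 1 higher. Leaving out wild-type array 2 left 3 called, and leaving out mutant array 1, mutant array 3 or wild-type array 1 left 4. In each of these settings none of the 9 genes was called higher in the mutant. Calls over all 4073 genes fell as well, from 1866 with all arrays. They were 1202 without wild-type array 2, 1093 without mutant array 1, 1601 without mutant array 3 and 1175 without wild-type array 1. Of all genes, 45.8% had a called strain difference, 21% lower and 24.8% higher in the mutant. The median strain difference was -0.36 for the 9 genes and 0.02 for all genes. The arrays of the strains were fully separated for 6 of the 9 genes (58.4% of all genes), with all mutant arrays below all wild-type arrays for 5 of them (27.3% of all genes) and above for 1 (31.1%). In both strains DCP1 and PAT1 fell, as did 21% of all genes, and EDC2 rose, as did 18.5%.

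**Figure D1:**
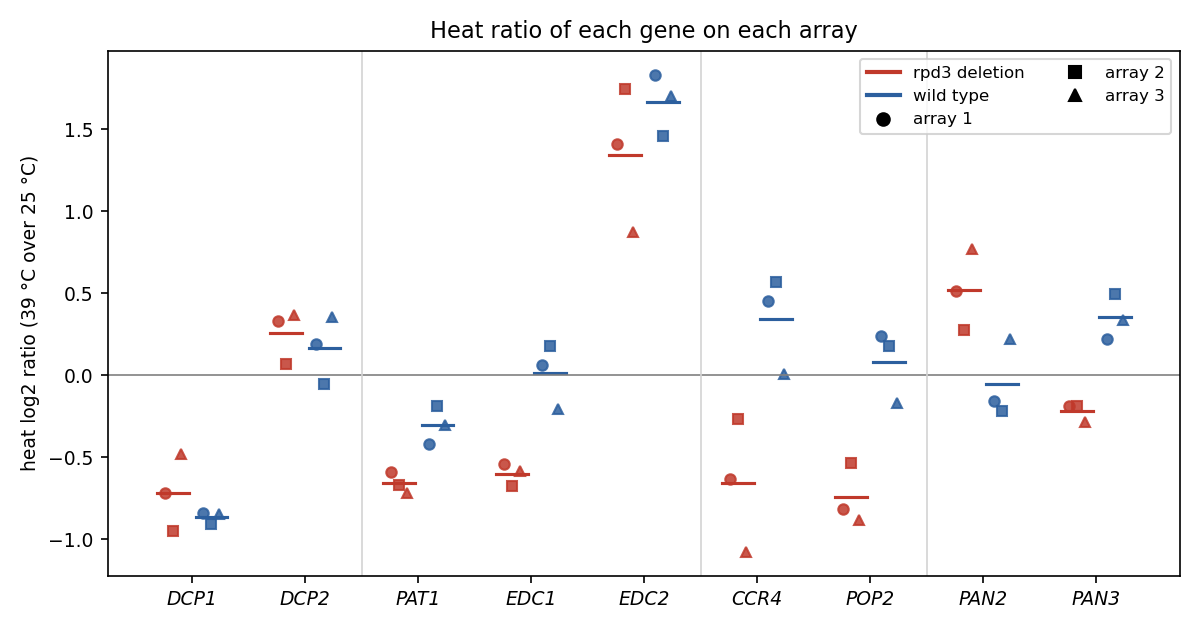
Heat ratio (log2, 39 °C over 25 °C) of the 9 genes on each array, with the rpd3 deletion in red left of wild type in blue, a marker per array and a bar at the mean of 3 arrays. CCR4, POP2, EDC1, PAT1 and PAN3 lie lower on all mutant arrays than on any wild-type array, PAN2 lies higher, and DCP1, DCP2 and EDC2 overlap.

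The deadenylases of the Ccr4-Not complex differed most between the strains. CCR4 encodes the main deadenylase of the cytoplasm. On arrays 1 to 3 its heat ratio was -0.63, -0.27 and -1.08 in the mutant, against 0.45, 0.57 and 0.0046 in wild type. All mutant values were below all wild-type values, and mutant array 3 was the lowest. CCR4 fell in the mutant (-0.66 ± 0.41, SD, n = 3, limma adjusted p = 0.0092) and was not called in wild type (0.34 ± 0.30, adjusted p = 0.10), where it was called if wild type was fitted on its own (adjusted p = 0.030). The strain difference was -1.002 ± 0.23 (SE, adjusted p = 0.0119), a ratio 2.00-fold lower in the mutant. Leaving out wild-type array 1 (-0.95, adjusted p = 0.055) or wild-type array 2 (-0.89, adjusted p = 0.052) ended that call.

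POP2, also known as CAF1, encodes a nuclease of the same complex that ties Ccr4 to the scaffold Not1. Its heat ratio was -0.82, -0.53 and -0.89 in the mutant, against 0.24, 0.18 and -0.17 in wild type. The strains did not overlap. POP2 fell in the mutant (-0.74 ± 0.19, SD, n = 3, adjusted p = 0.00069) and was not called in wild type (0.08 ± 0.22, adjusted p = 0.52). The strain difference of -0.83 ± 0.15 (SE, adjusted p = 0.0051) kept its call under all 14 alternative settings, with values between -0.95 and -0.58. Within an array CCR4 and POP2 stayed close. CCR4 minus POP2 was 0.18, 0.27 and -0.19 in the mutant and 0.21, 0.39 and 0.18 in wild type, and these overlapped.

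The subunits of the other deadenylase had strain differences of opposite sign. PAN2 encodes the nuclease, and PAN3 encodes the subunit that brings it to poly(A)-binding protein. The heat ratio of PAN2 was 0.51, 0.28 and 0.77 in the mutant, against -0.16, -0.22 and 0.22 in wild type. The strains did not overlap, though mutant array 2 and wild-type array 3 were close. PAN2 rose in the mutant (0.52 ± 0.25, SD, n = 3, adjusted p = 0.0069) and was not called in wild type (-0.05 ± 0.24, adjusted p = 0.71). It was the only one of the 9 genes with a called higher ratio in the mutant, by 0.57 ± 0.17 (SE, adjusted p = 0.030). The call was lost without mutant array 1 (adjusted p = 0.088) or 3 (0.065) and without wild-type array 1 (0.109) or 2 (0.108).

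PAN3 had a heat ratio of -0.19, -0.19 and -0.29 in the mutant, against 0.22, 0.50 and 0.34 in wild type. Every mutant value was negative and every wild-type value positive. PAN3 fell in the mutant (-0.22 ± 0.058, SD, n = 3, adjusted p = 0.038) and rose in wild type (0.35 ± 0.14, adjusted p = 0.0051). It was the only one of the 9 genes called in opposite directions, which held for 7.1% of all genes. The strain difference was -0.57 ± 0.11 (SE, adjusted p = 0.0060). The small fall in the mutant lost its call without any 1 mutant array (adjusted p = 0.066 to 0.138) and without wild-type array 3 (0.055), and also where the mutant was fitted on its own (0.062).

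PAN2 minus PAN3 within an array does not depend on where an array's 0 is set. It was 0.70, 0.46 and 1.06 in the mutant, against -0.38, -0.72 and -0.11 in wild type. PAN2 thus had the higher heat ratio of the 2 on every mutant array and the lower one on every wild-type array. For DCP2 minus DCP1 and EDC2 minus EDC1 the strains overlapped, as they did for CCR4 minus POP2.

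**Figure D2:**
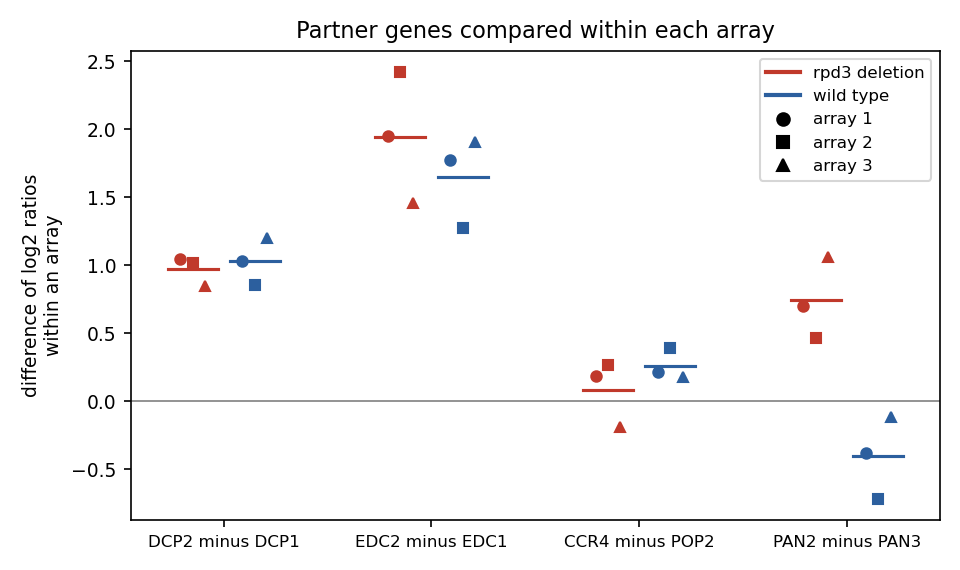
Difference between the log2 heat ratios of 2 partner genes on the same array, with the rpd3 deletion in red left of wild type in blue, a marker per array and a bar at the mean of 3 arrays. PAN2 minus PAN3 is above 0 on all mutant arrays and below 0 on all wild-type arrays, and the other 3 pairs overlap between strains.

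The decapping enzyme showed no called strain difference. DCP1, whose product stimulates Dcp2, had a heat ratio of -0.72, -0.95 and -0.48 in the mutant, against -0.84, -0.91 and -0.85 in wild type. The wild-type values lay within the range of the mutant. DCP1 fell in both strains, by 0.72 ± 0.24 (SD, n = 3, adjusted p = 0.00047) in the mutant and by 0.87 ± 0.035 (adjusted p = 0.00014) in wild type. Its strain difference was 0.15, with a 95% interval of -0.17 to 0.47 (adjusted p = 0.39).

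DCP2, the gene of the catalytic subunit, had a heat ratio of 0.33, 0.07 and 0.37 in the mutant, against 0.19, -0.05 and 0.36 in wild type. It was called in neither strain (0.26 ± 0.16, SD, n = 3, adjusted p = 0.057 in the mutant, and 0.16 ± 0.21, adjusted p = 0.19 in wild type). The value in the mutant passed the threshold under 6 of 15 alternatives, with adjusted p of 0.018 under a replicate block to 0.44 with the trend on gene length removed. It was called if mutant array 2 (0.35, adjusted p = 0.025) or wild-type array 2 (adjusted p = 0.049) was left out. The strain difference was 0.09, with a 95% interval of -0.24 to 0.43 (adjusted p = 0.62). DCP2 lay above DCP1 on every array, by 1.05, 1.02 and 0.85 in the mutant and by 1.03, 0.85 and 1.20 in wild type.

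The 3 activators of decapping responded in different ways. EDC1 and EDC2 encode small RNA-binding proteins that stimulate the decapping enzyme. EDC2 had the highest heat ratio of the 9 genes in both strains, at 1.41, 1.74 and 0.87 in the mutant, against 1.83, 1.46 and 1.70 in wild type. It rose 2.54-fold in the mutant (1.34 ± 0.44, SD, n = 3, adjusted p = 0.00024) and 3.17-fold in wild type (1.66 ± 0.19, adjusted p = 6.28e-05). Its strain difference of -0.32 was not called (95% interval -0.84 to 0.20, adjusted p = 0.26). Mutant array 3, which also had the lowest HSP12 ratio of the mutant arrays, held the lowest value. Without mutant array 2, which had the highest, the strain difference was called, at -0.52 (adjusted p = 0.043).

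EDC1 did not rise with EDC2. Its heat ratio was -0.54, -0.68 and -0.59 in the mutant, against 0.06, 0.18 and -0.21 in wild type. The strains did not overlap, and the mutant arrays lay close together. EDC1 fell in the mutant (-0.60 ± 0.068, SD, n = 3, adjusted p = 0.00079) and was not called in wild type (0.01 ± 0.20, adjusted p = 0.91). The strain difference was -0.61 ± 0.13 (SE, adjusted p = 0.0076) and kept its call under all 14 alternative settings.

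PAT1 encodes a protein that binds deadenylated mRNA with the Lsm1-7 ring and recruits the decapping enzyme. Its heat ratio was -0.59, -0.67 and -0.72 in the mutant, against -0.42, -0.19 and -0.30 in wild type. The strains did not overlap. PAT1 fell in both, by 0.66 ± 0.063 (SD, n = 3, adjusted p = 0.00021) in the mutant and by 0.30 ± 0.11 (adjusted p = 0.0083) in wild type. With wild-type array 1 left out, the fall in wild type was not called (adjusted p = 0.061). The strain difference was the smallest that was called among the 9 genes (-0.36 ± 0.11, SE, adjusted p = 0.029). It was not called without mutant array 1 (adjusted p = 0.081) or 3 (0.071), or without wild-type array 2 (0.099) or 3 (0.062).

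**Figure D3:**
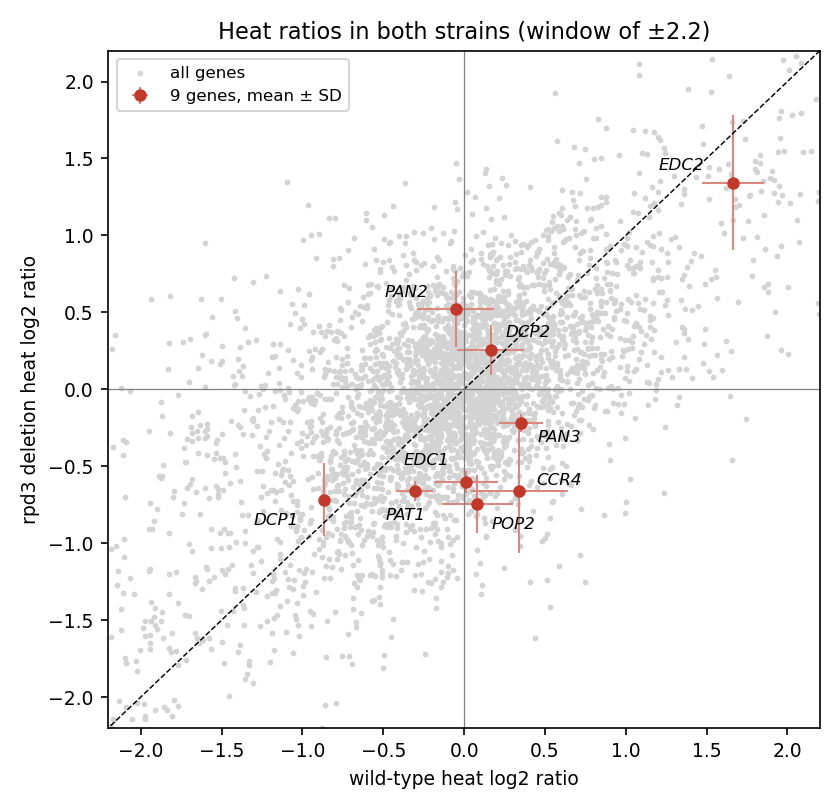
Mean log2 heat ratio in wild type (x axis) and in the rpd3 deletion (y axis) for all genes (grey, window of ±2.2) and the 9 genes (red, bars are the SD over 3 arrays). CCR4, POP2, EDC1, PAN3, PAT1 and EDC2 lie below the dashed line of equal ratios, DCP1 and DCP2 lie slightly above it, and PAN2 lies further above.

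The place of 0 on an array bears on the smaller differences. HIS3, LEU2, MET17 and URA3 are absent or cut in BY4741 and serve as spots without a full transcript. Each had all mutant arrays below all wild-type arrays, as had 27.3% of all genes. Their strain differences were -0.29 to -0.18, and none was called, though HIS3 (adjusted p = 0.0501) and LEU2 (0.056) came close to the threshold. With every array centred on the mean of these 4 genes, the median strain difference of all genes was 0.27, against 0.02 as deposited. Relative to that shifted 0, 80.3% of the called genes were higher in the mutant, against 54.2% as deposited. In wild type 32.3% of the called genes rose, against 45% as deposited. Of the 9 genes, CCR4 (-0.76, adjusted p = 0.021), POP2 (-0.58, 0.011), EDC1 (-0.37, 0.044) and PAN2 (0.82, 0.010) kept called strain differences with this centring. PAT1 (-0.11, adjusted p = 0.51) and PAN3 (-0.33, 0.074) did not. DCP1 (0.40, adjusted p = 0.059), DCP2 (0.34, 0.111) and EDC2 (-0.08, 0.78) stayed uncalled, with DCP1 close to the threshold. The fall of PAN3 in the mutant (-0.13, adjusted p = 0.28) and its rise in wild type (0.20, 0.092) were not called either.

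Heat ratios also varied with gene length, a measure taken from the RefSeq table. Across 4065 genes, which are not independent replicates, the ratio correlated with log2 length at r of 0.113 to 0.305 on the mutant arrays, 0.038 to 0.121 on the wild-type arrays and 0.186 for the strain difference. With that trend removed from each array, the 6 called strain differences of the 9 genes kept their calls. PAN2, the longest of them, had a strain difference of 0.38 (adjusted p = 0.040) in that setting, EDC1 had -0.44 (0.025) and CCR4 had -1.12 (0.012). In the mutant alone, the rise of PAN2 was then 0.33 (adjusted p = 0.011) and the ratio of EDC1 was -0.33 (0.013).

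From 6 lists of decay genes, 41 of 46 genes were measured. Of these 41, 9 were higher and 9 lower in the mutant and 23 were not called, beside 24.8% of all genes higher and 21% lower. Their median strain difference was 0.08. In the mutant 12 rose and 18 fell, beside 33.7% and 31.9% of all genes. In wild type 6 rose and 19 fell, beside 29.7% and 36.3%.

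The other 7 subunits of the Ccr4-Not complex split, with 3 called lower in the mutant and 1 higher. Of all genes, 21% were called lower and 24.8% higher. Lower strain differences were called for CAF40 (-0.76 ± 0.25, SE, adjusted p = 0.039), CDC36, which encodes Not2 (-0.62 ± 0.21, 0.045), and CDC39, which encodes the scaffold Not1 (-0.43 ± 0.12, 0.025). NOT3 was higher in the mutant (1.18 ± 0.20, adjusted p = 0.0040), and the other 3, NOT5 among them (0.34 ± 0.17, 0.14), were not called. NOT5 was called with arrays centred on the 4 genes absent or cut in BY4741 (0.58, adjusted p = 0.032). It was also called under a replicate block (adjusted p = 0.048) and without mutant array 2 (0.51, adjusted p = 0.013). CDC39 is named after its value was seen. NOT3 had a heat ratio of 0.48, 0.21 and 0.93 in the mutant, against -0.61, -0.90 and -0.43 in wild type. It rose in the mutant and fell in wild type, with a gap between the strains. CDC36 and CAF40 overlapped between strains. CDC36 stood at -1.42, -0.95 and -1.49 in the mutant, against -0.46, -0.47 and -1.05 in wild type. CAF40 stood at -0.57, -0.01 and -0.88 in the mutant, against 0.48, 0.41 and -0.08 in wild type. CAF40 and CDC36 lost their calls with arrays centred on the 4 genes absent or cut in BY4741 (adjusted p = 0.093 and 0.139). Both calls were also lost without mutant array 1 (0.116 and 0.141) or 3 (0.078 and 0.094). The calls were lost too without wild-type array 1 (0.138 and 0.154) or 2 (0.127 and 0.148). That of CDC36 was also lost with the length trend removed (0.058). CDC39 was not called with the centring on those 4 genes (-0.19, adjusted p = 0.30), without mutant array 1 (0.088) or without wild-type array 1 (0.076) or 2 (0.085).

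Among decapping factors other than the 9 genes, 10 of 12 were measured. Of these 10, 3 were called lower in the mutant and 1 higher, beside 21% and 24.8% of all genes. LSM5 (-1.02 ± 0.17, SE, adjusted p = 0.0038) and LSM6 (-0.71 ± 0.13, 0.0044), subunits of the Lsm ring, were lower in the mutant, as was SCD6 (-0.38 ± 0.098, 0.018), named after its value was seen. LSM3 was higher (0.53 ± 0.18, adjusted p = 0.045), and 6 genes were not called, among them LSM1 (0.28 ± 0.15, 0.16), the subunit specific to the cytoplasmic ring. LSM1 was called with the centring on the 4 genes absent or cut in BY4741 (0.52, adjusted p = 0.034). It was also called without mutant array 2 (0.43, 0.0185). LSM5 had a heat ratio of -0.64, -0.47 and -1.001 in the mutant, against 0.34, 0.53 and 0.08 in wild type. Its strains did not overlap. With the length trend removed, LSM6 was not called (-0.24, adjusted p = 0.13) and LSM5 stood at -0.58 (0.0055). SCD6 was not called with the median of the spots (adjusted p = 0.058). With arrays centred on the 4 genes absent or cut in BY4741, SCD6 was not called either (-0.13, adjusted p = 0.37). Its call was also lost without mutant array 1 (0.082) or without wild-type array 1 (0.055) or 2 (0.064). LSM3 was not called with arrays centred on the median of all genes (adjusted p = 0.069), with quantile normalization (0.076), without mutant array 1 (0.126) or 2 (0.074), or without any 1 wild-type array (0.084 to 0.119).

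Of the nucleases that degrade uncapped RNA, the cytoplasmic XRN1 varied widely. Its heat ratio was -0.43, -1.34 and 0.21 in the mutant, against -0.94, -1.04 and -0.48 in wild type, and its strain difference was 0.31 (95% interval -0.55 to 1.16, adjusted p = 0.51). Without mutant array 2 it was 0.72 (adjusted p = 0.029), and without mutant array 3 it was -0.06. RAT1, the nuclear counterpart, stood at 0.04, -0.25 and 0.27 in the mutant, against -1.27, -1.25 and -1.25 in wild type. It fell in wild type and was not called in the mutant, with a strain difference of 1.28 ± 0.14 (SE, adjusted p = 0.00092). RAI1, whose product works with Rat1, was also higher in the mutant (0.59 ± 0.11, adjusted p = 0.0054).

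In nonsense-mediated decay, the pathway that removes mRNAs with early stop codons, 1 of 4 genes had a called strain difference, beside 45.8% of all genes. UPF3 had a heat ratio of 0.85, 1.15 and 0.94 in the mutant, against -0.61, -1.09 and -0.33 in wild type. It rose in the mutant and fell in wild type (strain difference 1.66 ± 0.20, SE, adjusted p = 0.0011), while NMD2 (0.49 ± 0.22, 0.11), NAM7, which encodes Upf1 (0.25 ± 0.15, 0.20), and EBS1 (-0.09 ± 0.11, 0.53) were not called. NMD2 was called with arrays centred on the 4 genes absent or cut in BY4741 (0.74, adjusted p = 0.033). It was also called under a replicate block (adjusted p = 0.021) and without mutant array 2 (0.73, adjusted p = 0.0069). NAM7 was called with that centring (0.50, adjusted p = 0.049).

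Of 8 genes of RNA-binding proteins, several of which direct mRNAs to decay, 2 were lower in the mutant and none was higher. Of all genes, 21% were called lower and 24.8% higher. The 2 lower genes were JSN1 (-0.40 ± 0.11, SE, adjusted p = 0.020) and PUF3 (-0.38 ± 0.11, 0.029). Both calls were lost with arrays centred on the 4 genes absent or cut in BY4741 (adjusted p = 0.31 and 0.44). That of PUF3 was also lost without mutant array 1 (0.062) or 2 (0.057) and without any 1 wild-type array (0.052 to 0.094), and that of JSN1 without mutant array 1 (0.079) or 3 (0.053) and without wild-type array 1 (0.070) or 3 (0.052). MPT5 (0.31 ± 0.18, adjusted p = 0.20) and TIS11 (0.16 ± 0.11, 0.26) had the highest differences of the list, and TIS11 was called with that centring (0.41, adjusted p = 0.033).

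Among 9 genes of the poly(A) tail and the cap, 4 were higher in the mutant and 1 was lower, beside 24.8% and 21% of all genes. TIF4631, an initiation factor that bridges cap and tail, stood at -0.84, -1.48 and -0.47 in the mutant, against -1.72, -1.87 and -1.88 in wild type (strain difference 0.89 ± 0.24, SE, adjusted p = 0.020). It fell in both strains. The poly(A) polymerase gene PAP1 rose in the mutant and was not called in wild type (0.76 ± 0.13, adjusted p = 0.0038). TIF4632 (0.58 ± 0.17, 0.029) and PBP1 (0.53 ± 0.18, 0.048), named after their values were seen, were higher too. PBP1 overlapped between strains, with mutant array 2 at 0.07 and wild-type array 3 at 0.09. NAB2, which encodes a nuclear poly(A)-binding protein, was lower in the mutant (-0.52 ± 0.10, adjusted p = 0.0069), and CDC33, the gene of the cap-binding protein, was not called (-0.31 ± 0.16, 0.15). CDC33 was called with quantile normalization (-0.54, adjusted p = 0.0099) and without mutant array 3 (-0.46, 0.034). With arrays centred on the 4 genes absent or cut in BY4741, NAB2 was not called (adjusted p = 0.098). TIF4631 was not called with quantile normalization (adjusted p = 0.051), without mutant array 1 (0.070) or without any 1 wild-type array (0.051 to 0.071). TIF4632 was not called without mutant array 1 (adjusted p = 0.106) or 3 (0.063) or without wild-type array 1 (0.108) or 2 (0.101). PBP1 was not called under these alternatives: centring on the median of all genes (adjusted p = 0.058), quantile normalization (0.055), robust variances (0.051), removal of the length trend (0.054) and leaving out mutant array 1 (0.16) or 3 (0.11) or any 1 wild-type array (0.058 to 0.15).

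**Figure D4:**
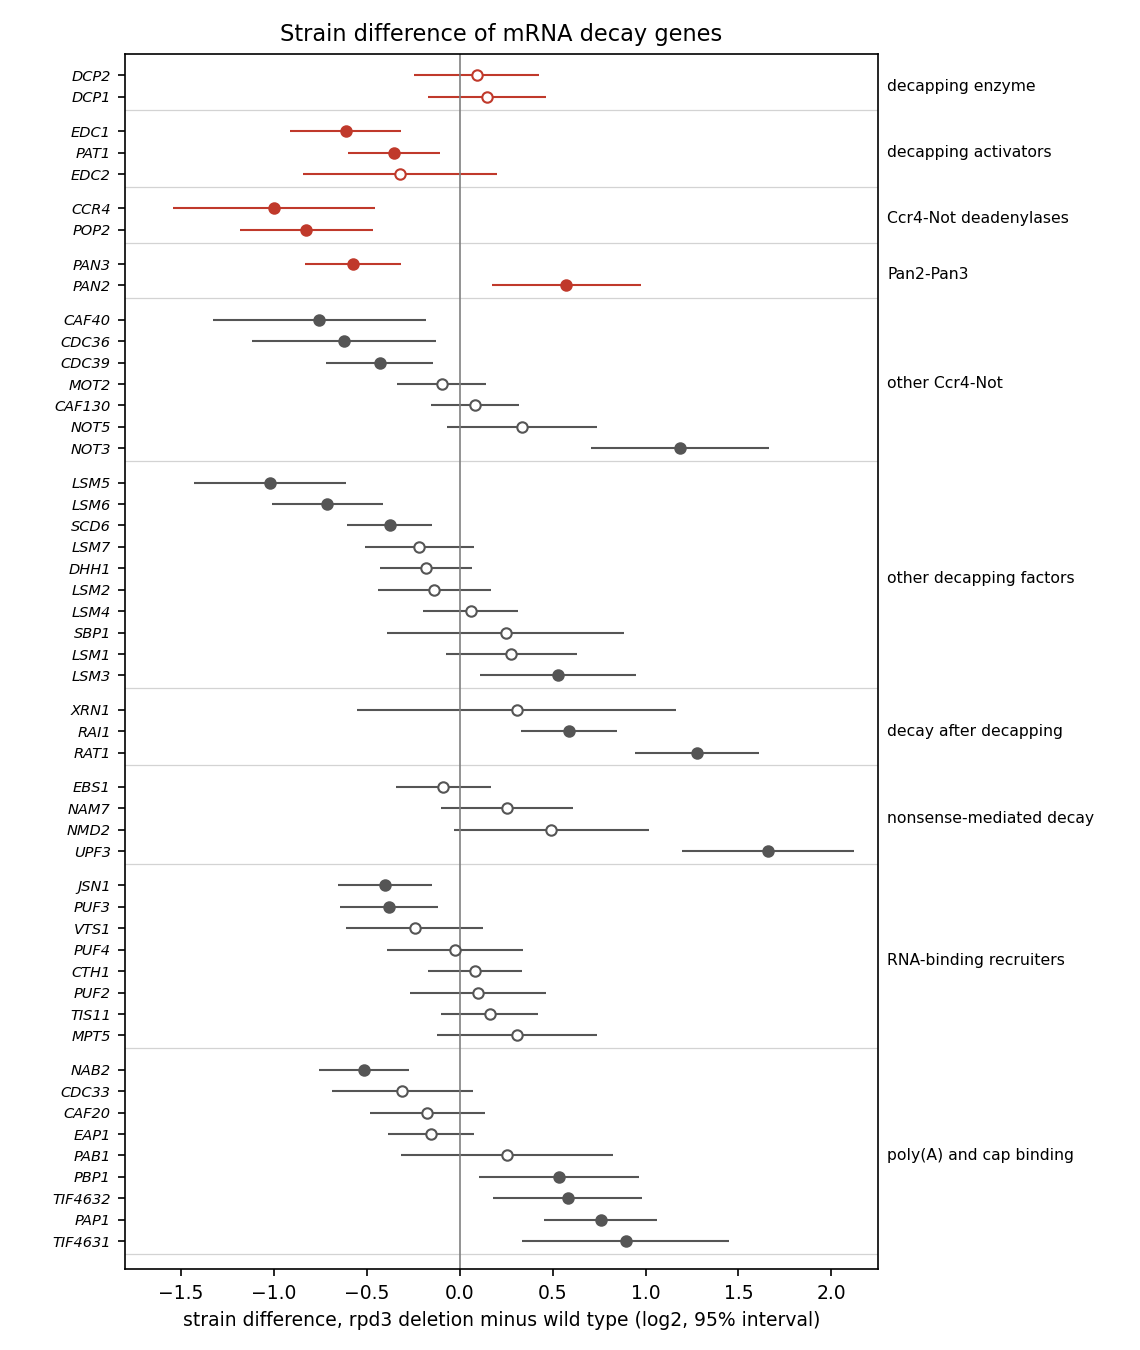
Strain difference (log2, rpd3 deletion minus wild type) with its 95% interval for the 9 genes (red) and 41 other decay genes (grey), by list; filled points were called. Points lie on both sides of 0 in most lists, from LSM5 at -1.02 to UPF3 at 1.66.

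For each of the 6 genes with a called strain difference, the 2 nearest of all other genes were taken by the root mean square difference of log2 heat ratios over the 6 arrays. CCR4 was nearest to SOH1 (0.087) and SHU1 (0.105). The ratio of SOH1 was -0.65, -0.21 and -0.92 in the mutant, against 0.56, 0.62 and 0.05 in wild type. POP2 was nearest to PDR17 (0.048) and STP3 (0.075), EDC1 to RGM1 (0.066) and PHO8 (0.081), and PAT1 to OCH1 (0.067) and ALG2 (0.084). PAN3 was nearest to ARK1 (0.057) and UFD2 (0.062), and PAN2 to SSK2 (0.074) and LCD1 (0.074). The largest of these distances was 0.105, and small distances follow from picking the nearest of all other genes. The same 6 arrays and the same layout of dyes underlie all of these patterns.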

How the data were processed

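The authors deposited 1 table of the whole series, with a log ratio per spot and array, read here as log2. Per the submitters' processing notes limma was used, with no version given. How the arrays were background-corrected and normalized is not given in the sources used here. Dim spots were not filtered, since no scanner intensities were used. The number of arrays limits the precision. Of 45220 spots, 28532 had 1 gene symbol each in the platform's probe table, none had several, and 16688 were unnamed. RefSeq's gene table (assembly R64) served to update 125 old symbols and held 4065 of 4073 genes. No build is named for the arrays, so its coordinates are not printed. Spots of a gene were averaged per array.

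Both strains entered 1 limma 3.58.1 fit in R 4.3.3 with no covariate (4 residual and 3.37 prior degrees of freedom), with Benjamini-Hochberg adjustment over 4073 genes. The fit was also run on simulated data, with noise drawn independently for each gene and array. Genes of a real array can deviate together, so that run does not give the error rate in these data. The genes and lists were chosen with earlier results of these data known. Named genes are the 9 genes, the 2 highest and 2 lowest strain differences of each further list, and the nearest patterns. EDC3, PBY1, DXO1, DCS1 and DCS2 were not analysed here. The planned search for promoter motifs was not run, as no sequences were used here. Alternatives covered the spot summary, array centring, quantile normalization, a replicate block, variance estimates, a filter on spot spread (SD above 0.25), leaving out each array, and, added after the data were seen, removal of a length trend (lowess, span 0.3).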

Additional observations from a re-analysis of the deposited data

Results flagged for a closer look

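Strain differences of the heat ratio (rpd3 deletion minus wild type, log2) that passed the limma test of the difference itself are gathered here. Among the 9 deadenylation and decapping genes they were -1.002 for CCR4, -0.83 for POP2, -0.61 for EDC1, -0.57 for PAN3, -0.36 for PAT1 and 0.57 for PAN2. Among the other decay genes named, the lower ones were -1.02 for LSM5, -0.76 for CAF40, -0.71 for LSM6, -0.62 for CDC36, -0.52 for NAB2, -0.43 for CDC39, -0.40 for JSN1, -0.38 for PUF3 and -0.38 for SCD6. The higher ones were 1.66 for UPF3, 1.28 for RAT1, 1.18 for NOT3, 0.89 for TIF4631, 0.76 for PAP1, 0.59 for RAI1, 0.58 for TIF4632, 0.53 for PBP1 and 0.53 for LSM3. Of all 4073 genes, 1866 passed the same test. With 3 arrays per strain, no search for outlying arrays within a group was made.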

How the results depend on the processing

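Of the values of the 9 genes under the alternatives, 123 of 135 in the mutant, 123 of 135 in wild type and 111 of 126 strain differences kept their direction and their side of the threshold. Leaving out 1 array gave 3 to 7 called strain differences, 7 to 9 calls in the mutant and 3 to 5 in wild type, and the count of 3 came without wild-type array 2. Among all genes, 1866 strain differences were called with all arrays, against 1093 without mutant array 1 and 1175 and 1202 when wild-type array 1 or 2 was left out. Signs turned for uncalled values only. With arrays centred on the 4 genes absent or cut in BY4741, EDC1 (-0.14) and POP2 (-0.069) were negative in wild type. EBS1 had a strain difference of 0.16 with that centring. With the length trend removed, DCP2 had a strain difference of -0.073. Leaving out 1 array gave -0.072 to 0.12 for EDC1 and -0.19 to 0.031 for PAN2 in wild type, and strain differences of -0.018 to 0.19 for DCP2 and -0.060 to 0.72 for XRN1. Arrays of the same number in the 2 strains did not all deviate together (r = -0.22, 0.21 and 0.418 for numbers 1 to 3). Pairs of different numbers had r from -0.476 (mutant 2 with wild type 3) to 0.455 (mutant 2 with wild type 1). The deviations of 3 arrays from their strain mean are tied to each other, so these r values cannot settle whether arrays were paired by number. In the main fit, arrays of the same number were taken to share only a number. With a replicate block, 6 strain differences of the 9 genes were called (9 calls in the mutant, 5 in wild type). DCP2 in the mutant (adjusted p = 0.018) and CCR4 in wild type (0.0073) then passed the threshold. Calls over all genes also rose with the block. They were 2093 for the strain difference, 2805 in the mutant and 2844 in wild type, against 1866, 2672 and 2687 in the main fit. The cause of these changes was not tested.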

Other observations

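The genes next to the 9 genes on the chromosomes, by the order of the RefSeq table, were looked at after the data were seen. Of 18 such neighbours 13 were measured, and 10 of these lie beside a gene with a called strain difference. None of the 10 was called in the direction of its neighbour, 8 were not called and 2 were called in the opposite direction. Of all genes, 24.8% were called higher in the mutant and 21% lower. These 2 flank POP2: BRE5 had a strain difference of 1.61 and NOG2 of 0.88, against -0.83 for POP2 itself.

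Mutant arrays 2 and 3 were the extremes for 7 of the 9 genes, as for 71.5% of all genes. The range over the 3 arrays was larger in the mutant than in wild type for 4 of the 9 genes, beside 60.6% of all genes. Array 2 was highest and array 3 lowest for EDC2, CCR4, POP2 and PAN3, the order that HSP12 also had, and array 3 was highest and array 2 lowest for DCP1, DCP2 and PAN2. The part of this order in the results was not tested.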
